A study of Homo sapiens with 2 samples.

Results

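Chromosome 16 peaks of the histone methyltransferase ASH1 (gene symbol ASH1L) are described here, with attention to 16q24, the last 3 bands of the long arm. All peaks whose deposited chromosome is 16 were taken, 54 of 910 in the list of replicate 1 (5.93%) and 257 of 4646 in that of replicate 2 (5.53%), or 311 of 5556 in all. The 16q24 window ran from position 84200001 to the chromosome's last base, 90354753 (hg19, bands 16q24.1 to 16q24.3), and was chosen with its high peak density already known. It held 23 replicate 1 and 94 replicate 2 peaks. Chromatin immunoprecipitation with sequencing (ChIP-seq) was done in K562, a human chronic myelogenous leukaemia line, with in-house rabbit polyclonal antibodies raised to a peptide of 18 amino acids from the C terminus of ASH1. Both samples are untreated, formaldehyde-fixed K562 cells, named biological replicates by the submitters, and form 1 group; replicate 1 used antibody batch 1 and replicate 2 antibody batch 3, so batch and replicate cannot be told apart. There is no other condition, and with 1 sample per batch no spread between repeats can be estimated. A peak is an interval where the authors' peak caller found more reads than background, and its deposited score, the authors' own value, ranks peaks within a list.

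ASH1 belongs to the trithorax group, proteins that keep genes in an active state through cell division, and its SET domain methylates lysine 36 of histone H3. Chromosome 16 is a gene-rich chromosome. Its short arm ends in 16p13.3, home of the alpha-globin genes that erythroid cells such as K562 can express, and band 16p11.2 is known for long duplicated segments. The long arm starts with a block of satellite heterochromatin for which the assembly holds little sequence. The bands 16q24.1 and 16q24.3 stain lightly, as gene-rich and GC-rich DNA does, and hold among others the forkhead genes FOXF1 and FOXC2 (16q24.1) and the genes ANKRD11 and FANCA (16q24.3). Peaks were not assigned to genes, because the annotation at hand is on GRCh38 and the peaks are on hg19, and peak sequences are not printed for the same reason.

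The lists differ in length and in threshold, and this touches every result below. The lowest score was 50.03 in replicate 1 and 70.02 in replicate 2, and 30 of the 54 replicate 1 peaks of chromosome 16 scored under 70. The number of reads is unknown for both. The median chromosome 16 peak scored 66.8 in the first list and 158 in the second, against 61.5 and 147 on all other sequences, and was 880 and 1201 bp wide, against 928 and 1062 bp. Copy number was not measured, so no density is corrected for it. Neighbouring peaks are not independent of each other, so each p-value given here is about the 2 lists and not about the spread between experiments.

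Peaks were crowded at the far end of the long arm in both lists. The 16q24 window is 6.81% of the chromosome's length and held 42.6% of its replicate 1 peaks (95% Clopper-Pearson interval 29.2 to 56.8%) and 36.6% of its replicate 2 peaks (30.7 to 42.8%). Intervals in this text cover counting error only. The density was 3.74 peaks per Mb in replicate 1 and 15.3 per Mb in replicate 2, while the rest of the chromosome had 0.368 and 1.94 per Mb. Against the genome's length this is 12.8 times (8.14 to 19.1) and 10.3 times (8.33 to 12.6) the even share. Outside the window, chromosome 16 stood at 1.26 times (0.860 to 1.77) in replicate 1 and 1.30 times (1.11 to 1.52) in replicate 2. The window was chosen with its density known, so these values are a description and carry no test.

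Position was tested over the whole genome in bins of 1 Mb. For each of 3113 bins and each list an exact binomial test, two-sided, set the number of peaks against the bin's part of the genome length, and a bin was called higher at a Benjamini-Hochberg adjusted p below 0.05. On chromosome 16, 3 of 91 bins were called in replicate 1, where 1.03% of all bins were called, and 9 of 91 in replicate 2, where 4.98% were. The same 3 bins, from 87 to 90 Mb, were called in both lists, out of the 0.514% of all bins (16 bins) called in both. No bin of the genome was called lower in either list, since an empty bin cannot pass at these list lengths.

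Bin 87 to 88 Mb, with 6 peaks in replicate 1, reached 20.5 times an even spread (interval 7.54 to 44.5; adjusted p = 0.00017 in the exact test). Its 15 peaks in replicate 2 reached 10.1 times (5.66 to 16.6; adjusted p = 6.8e-09, exact test). Bin 88 to 89 Mb held 4 and 19 peaks, 13.7 times (exact test, adjusted p = 0.023) and 12.8 times (adjusted p = 1.2e-12), and its replicate 2 count ranks 6 of all 3113 bins. Bin 89 to 90 Mb held 5 and 17 peaks, 17.1 times (exact test, adjusted p = 0.002) and 11.5 times (adjusted p = 7.3e-11). These 3 adjoining bins were the longest run called in both lists on any chromosome, and next came runs of 2 bins on chromosomes 9 and 11. All 3 lie in the 16q24 window, which was chosen with its density known. Their calls, ranks and run length therefore describe that density and give it no independent support. In replicate 2 alone the run reached from 85 to 90 Mb, 5 bins with 15 to 19 peaks each, and runs of 6 were found on chromosomes 1 and 17. Its first 2 bins, 85 to 86 Mb and 86 to 87 Mb, held 16 and 18 replicate 2 peaks, at least 10.8 times an even spread (exact test, adjusted p = 6.9e-10 and 1.1e-11), but only 3 and 2 replicate 1 peaks, all shared. The adjoining bins from 83 to 84 Mb and from 84 to 85 Mb each held 1 replicate 1 and 6 replicate 2 peaks (4.04 times in replicate 2, exact test, adjusted p = 0.064 each), so the dense stretch began close to 85 Mb and not at the band border.

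**Figure D1:**
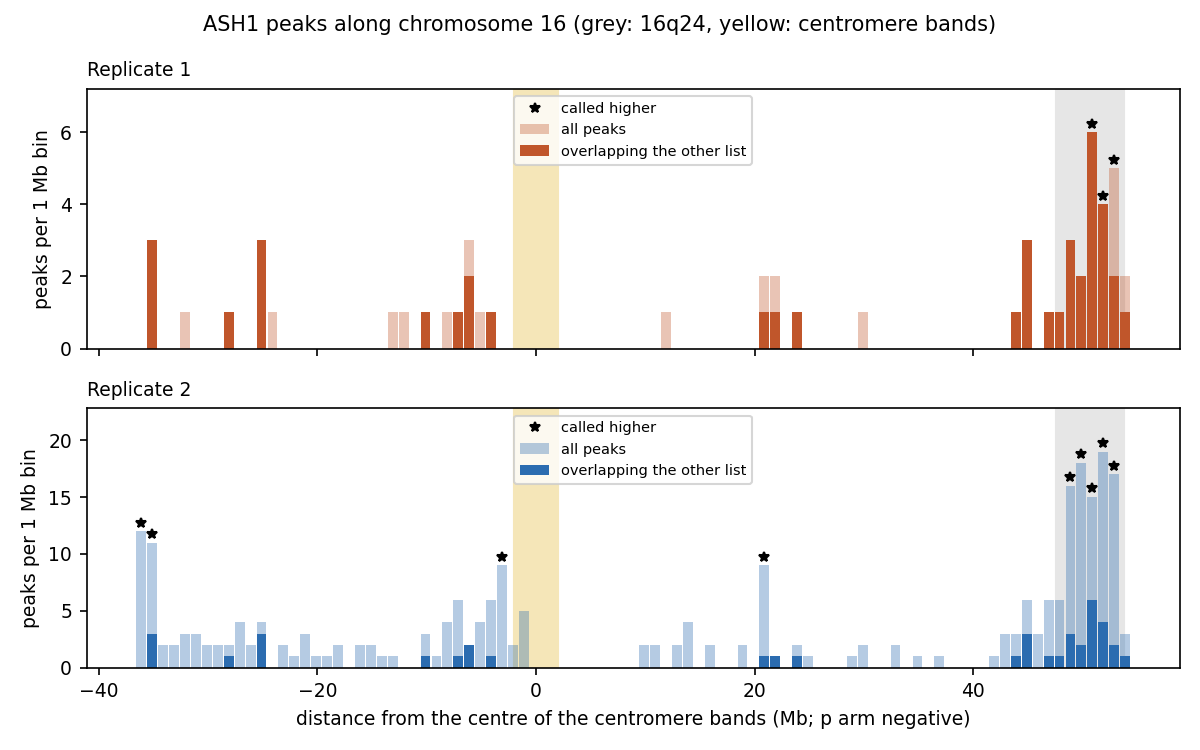
Peaks per 1 Mb bin (vertical axis) along chromosome 16, by distance from the centre of the centromere bands in Mb, for replicate 1 (top) and replicate 2 (bottom); dark bars are peaks that overlap the other list, stars mark bins called higher, and the last bin is shorter than the others. In both lists the tallest bars stand in the grey 16q24 window, with up to 6 and 19 peaks.

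Outside the window 4 further bins were called higher, all in replicate 2 alone. Over the genome 4.98% of bins were called in replicate 2 (155 of 3113). The share of chromosome 16 bins called outside the window was close to that, so their number does not set the chromosome apart. The first bin of the short arm, 0 to 1 Mb, had 12 peaks in replicate 2 (8.08 times, interval 4.18 to 14.1; adjusted p = 3.1e-06, exact test) and 0 in replicate 1. Bin 1 to 2 Mb had 11 (7.41 times; adjusted p = 2.1e-05, exact test), next to 3 in replicate 1, all of them shared. The bins from 33 to 34 Mb and from 57 to 58 Mb held 9 each (6.06 times, exact test, adjusted p = 0.00083), with 0 and 2 replicate 1 peaks. A bin needed at least 4 peaks to be called in replicate 1 and at least 7 in replicate 2, so replicate 1 bins with 3 peaks were out of reach of the test. Such bins lay outside the window at 1 to 2, 11 to 12, 30 to 31 and 81 to 82 Mb (10.3 times, exact test, adjusted p = 0.13 each), and inside it at 85 to 86 Mb.

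Both arms carried more peaks than their length. Arm lengths left out centromere and variable bands, and 43 arms of the genome were tested. The long arm, with 35 replicate 1 peaks, stood at 2.55 times an even spread (interval 1.79 to 3.52; adjusted p = 5.2e-06, exact test) and, with 148 replicate 2 peaks, at 2.18 times (1.85 to 2.55; adjusted p = 1.7e-16). The short arm held 19 and 102, at 1.74 times (1.05 to 2.69, exact test, adjusted p = 0.04) and 1.88 times (1.54 to 2.28, adjusted p = 1.1e-08). Of the long arm's peaks, 23 in replicate 1 and 94 in replicate 2 lay in 16q24, chosen with its density known. The long arm's calls therefore describe that density in large part and give it no independent support. Being called higher was common among arms, at 25.6% of them in replicate 1 and 39.5% in replicate 2. The short arm's replicate 1 call was lost when only peaks scoring 70 or more were kept (1.47 times, exact test, adjusted p = 0.44) and in the upper 50% of each list (2.02 times, adjusted p = 0.057).

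Outside 16q24 the long arm stood near the genome's density. Between the satellite block and the window, in 16q12.1 to 16q23.3 (37.20 Mb), replicate 1 had 12 peaks and replicate 2 had 54, at 1.10 times (0.572 to 1.92) and 0.978 times (0.736 to 1.27) the genome's density. Within that stretch the bands 16q22.1 to 16q23.1 (12.50 Mb) were nearly bare, with 0 replicate 1 and 5 replicate 2 peaks, or 0.269 times the genome's density (0.0875 to 0.628). A count of 0 in replicate 1 allows up to 1.01 times. The bands 16q23.2 and 16q23.3, just before the window, held 5 and 21 peaks (3.42 times, 1.11 to 7.95, and 2.83 times, 1.75 to 4.32). On the short arm the density varied too. The bands 16p13.2 to 16p12.1 stood at 1.35 times (0.586 to 2.66) and 1.10 times (0.758 to 1.54). Band 16p11.2 stood at 3.68 times (1.48 to 7.56) and 3.32 times (2.27 to 4.67), and the first 2 Mb at 5.13 times (1.06 to 14.9) and 7.75 times (4.91 to 11.6).

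**Figure D2:**
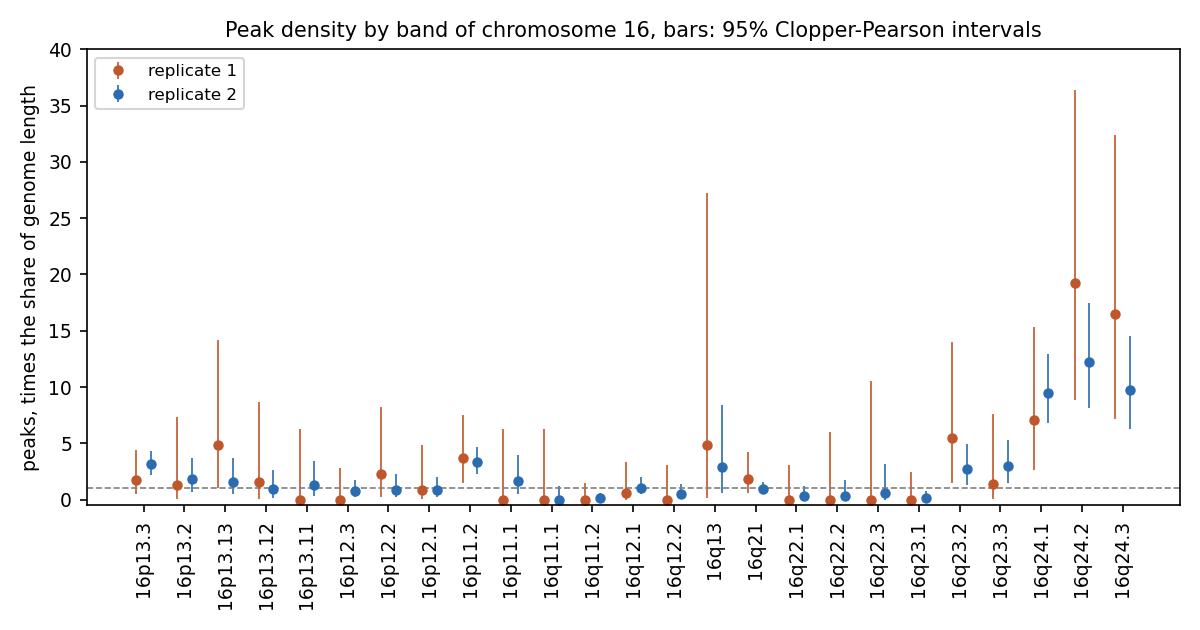
Peak density of each band of chromosome 16, as a multiple of its share of genome length (vertical axis), for replicate 1 and replicate 2, with bars for 95% Clopper-Pearson intervals; the dashed line is an even spread. The 3 bands of 16q24 at the right stand highest in replicate 2, from 9.52 to 12.2 times, and the bands from 16q22.1 to 16q23.1 lie below the line in both lists.

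The 2 ends of the chromosome differed from each other. The last 5 Mb of the long arm held 22 replicate 1 and 85 replicate 2 peaks, the highest count among 42 chromosome ends in both lists, level in replicate 1 with the end of 9q (22) and followed in replicate 2 by 7q (79) and 9q (78). The median end held 3.5 and 39.5. The first 5 Mb of the short arm held 4 and 30 peaks and ranked 20 and 24. In the outermost 1 Mb the counts were 5 and 10 on the long arm and 0 and 12 on the short arm, so in replicate 2 the short arm's last Mb was as crowded as the long arm's, and the difference built up further inside. No test of the difference between ends was run. The last 5 Mb of the long arm lie inside the window, which was chosen with its density known. Their rank and the difference between the 2 ends therefore describe that density and give it no independent support.

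The lists of the 2 antibody batches were then set against each other site by site. Of the chromosome's replicate 1 peaks, 39 of 54 overlapped a replicate 2 peak by at least 1 bp (72.2%, 58.4 to 83.5%), against 427 of 851 on the other chromosomes (50.2%, 46.8 to 53.6%; Fisher's exact test, odds ratio 2.58, adjusted over 24 chromosomes p = 0.015). Of the 24 chromosomes, 20.8% differed from the rest in this test. In replicate 2 it was 39 of 257 (15.2%, 11.0 to 20.2%) against 9.68% elsewhere, which did not pass (odds ratio 1.67, Fisher's exact test, adjusted p = 0.1); 0% of chromosomes passed there after adjustment, and 6 of 24 had an unadjusted p below 0.05. The replicate 1 call depended on what was compared. It was lost when only scores of 70 or more were kept (87.5% against 76.0% elsewhere, Fisher's exact test, adjusted p = 0.75), with the replicate 2 list shortened to its 910 highest peaks (42.6% against 29.0%, adjusted p = 0.27) and in the upper 50% of each list (84.8% against 61.5%, adjusted p = 0.094). With chromosome 6, where replicate 1 had its longest run of called bins (4), left out of the comparison, the other chromosomes stood at 53.8% (Fisher's exact test, adjusted p = 0.068), and with 16q24 left out of chromosome 16 the share was 64.5% (adjusted p = 0.31).

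Sharing was unevenly spread over the window. In 16q24, 19 of 23 replicate 1 peaks were shared (82.6%, 61.2 to 95%), and 20 of 31 on the rest of the chromosome (64.5%, 45.4 to 80.8%). In replicate 2 it was 19 of 94 (20.2%, 12.6 to 29.8%) and 20 of 163 (12.3%, 7.66 to 18.3%). These intervals overlap, and the difference was not tested. All 18 replicate 1 peaks between the window's start and the last 1 Mb were shared (81.5 to 100%), but only 1 of the 5 in the last 1 Mb. The 4 unshared ones all lay in 16q24.3, between 5.82 and 66.7 kb from the nearest replicate 2 peak. Of them 3 scored under 70, as did 10 of the 23 replicate 1 peaks of the whole window. The 11 unshared replicate 1 peaks elsewhere on the chromosome lay a median of 95.9 kb and up to 741 kb from one.

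**Figure D3:**
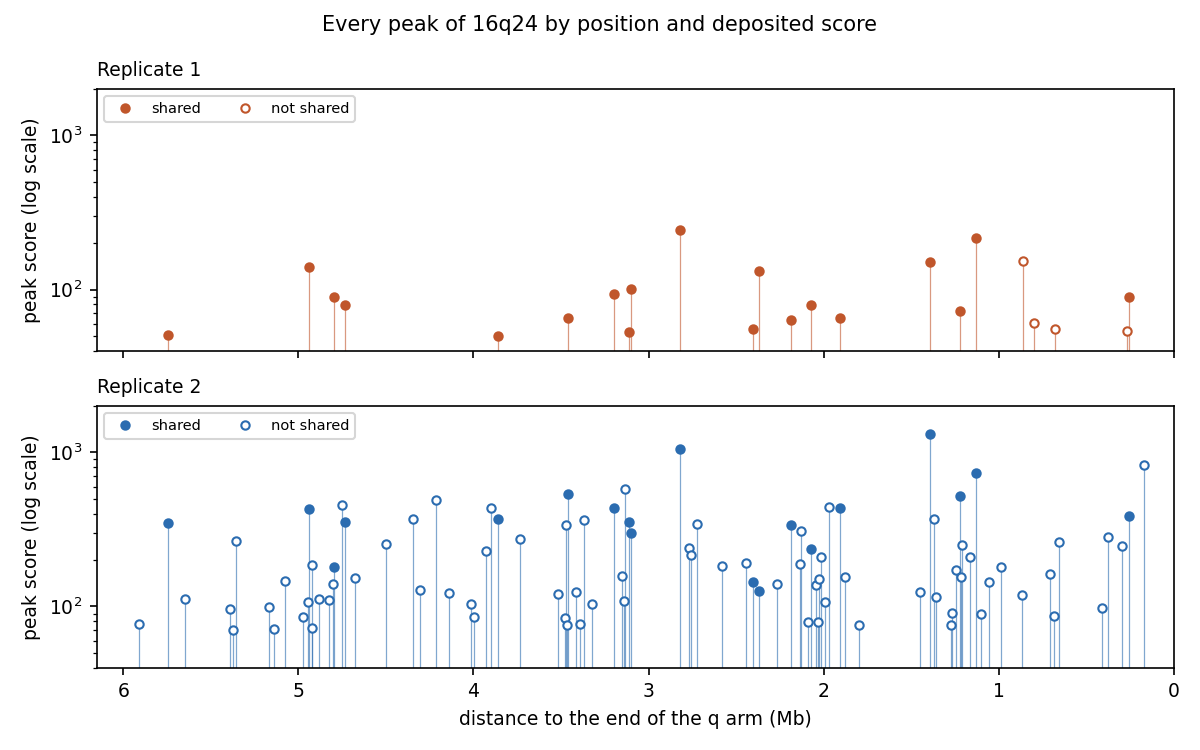
Every peak of 16q24 by distance to the end of the q arm in Mb (horizontal axis, decreasing to the right) and deposited score (vertical axis, log scale), for replicate 1 (top, 23 peaks) and replicate 2 (bottom, 94 peaks); filled points overlap a peak of the other list. Open points of replicate 1 are seen only in the last 1 Mb, where 4 of 5 peaks are unshared.

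The sites of 16q24.1, the band of the forkhead genes, came first along the window. All 6 replicate 1 peaks were shared, and replicate 2 had 41 peaks. The site at 85415906 to 85417246 was the highest in replicate 1, with a score of 139.99, against 426.01 in the other list. The site at 86894588 to 86895287 had the highest replicate 2 score of the band, 535.53, and only 65.39 in replicate 1. The peaks at 85556271 to 85557212 and at 85622942 to 85624057 scored 88.88 and 79.93 in replicate 1 and 179.96 and 355.34 in replicate 2. Those at 84612051 to 84612938 and at 86497728 to 86498475 were among the lowest of the replicate 1 list, with 50.62 and 50.15, although replicate 2 had them at 348.59 and 368.76. A low replicate 1 score thus did not go with a low replicate 2 score in this band.

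Band 16q24.2 had the highest density of the chromosome in both lists. Its 1.60 Mb held 9 replicate 1 peaks, all shared, and 29 replicate 2 peaks. The leading site, at 87535346 to 87536780, had the highest replicate 1 score of the chromosome, 243.5, and scored 1048.4 in replicate 2, where its peak covered 87535247 to 87537001. A group of 3 shared sites preceded it, at 87157890 to 87158896 (93.28 in replicate 1, 434.52 in replicate 2), at 87243429 to 87244315 (52.67 and 353.62) and at 87255191 to 87256192 (100.84 and 299.11). Among them, at 87220372 to 87222182, replicate 2 had an unshared peak of 582.17, the fifth highest of the window. The site at 87984154 to 87985153 was the only shared one of chromosome 16 with a higher score in replicate 1, 132.18 against 126.66. The others of the band scored 55.65 and 145.21 (from 87950999), 63.84 and 338.03 (from 88170581), 79.19 and 235.42 (from 88280842) and 65.28 and 434.67 (from 88446752) in replicates 1 and 2. The widest peak of the window, 5777 bp from 88310082 to 88315858, was an unshared replicate 2 peak with a score of 137.64.

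In 16q24.3, the outermost band, replicate 1 had 8 peaks and replicate 2 had 24, of which 4 in each list were shared. The replicate 2 peaks without a partner were found from the start of the band to its end. At 88960208 to 88961192 a replicate 1 peak of 151.39 met one of 1316.07, the window's highest replicate 2 score. The site at 89223731 to 89225256 had 217.41 and 734.62, and the one at 89134912 to 89136245 had 72.73 and 517.86. The fourth shared site, at 90098353 to 90099411, scored 89.56 and 388.39. The unshared replicate 1 peak at 89495194 to 89497136 was the widest of replicate 1 in the window, 1943 bp, and scored 153.74, the highest unshared value of the chromosome in that list. The other unshared ones scored 60.79 (from 89555146), 55.82 (from 89675722) and 54.01 (from 90087376). In replicate 2 the outermost peak, at 90182654 to 90185213, scored 833.36 without a replicate 1 peak within 83.2 kb.

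On the rest of the chromosome the 2 shared sites with the highest mean rank lay in 16q23.2, and the next ones on the short arm. The pair at 81610074 to 81612126 and 81647992 to 81649358, in 16q23.2, scored 178.79 and 176.09 in replicate 1 and 1025.71 and 912.39 in replicate 2. On the short arm the site at 8611825 to 8614583 (16p13.2) scored 151.52 and 462.18, and the one at 30056284 to 30057092 (16p11.2) 105.2 and 405.7. Next by mean rank came 32342618 to 32346141 in 16p11.2 (74.65 and 410.32), 80610341 to 80611087 in 16q23.2 (74.64 and 323.91), 83030413 to 83031033 in 16q23.3 (79.75 and 234.66) and 30934111 to 30934985 in 16p11.2 (77.92 and 241.58). Of these 8, 4 lay in the bands 16q23.2 and 16q23.3. All 5 replicate 1 peaks of those 2 bands were shared.

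At shared sites the replicate 2 peak mostly enclosed the replicate 1 peak. The 39 pairs on the chromosome joined 39 different peaks of each list. In 34 the whole replicate 1 peak was covered, and in none was less than 91.4% of it covered. Midpoints lay a median of 65.0 bp apart in 16q24 and 146 bp on the rest. The replicate 2 peak was the wider in 38 pairs and had the higher score in 38 as well. The median ratio of the replicate 2 to the replicate 1 score was 4.45 in 16q24 (quartiles 3.01 and 6.80) and 3.87 elsewhere (2.97 and 5.26). Scores from libraries of unknown depth are not on a common scale, so the ratio is only a description. A pair whose replicate 1 score is below 70 can only score higher in replicate 2. Over the 39 pairs the scores had a Spearman rho of 0.39, and a Pearson r of 0.56 on the log10 scale. The pairs are sites within the same 2 libraries, not independent samples.

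**Figure D4:**
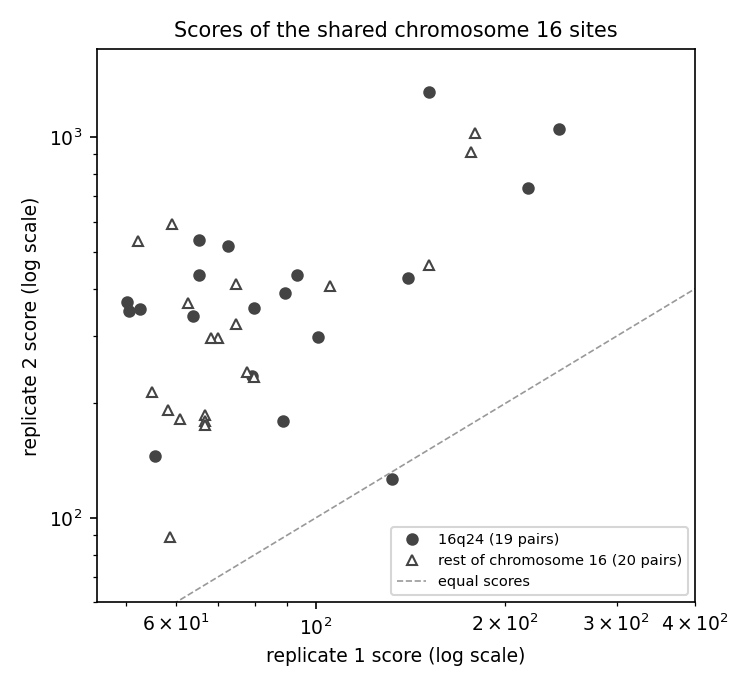
Replicate 1 score (horizontal) against replicate 2 score (vertical), both on log scales, for the 39 shared sites of chromosome 16; filled circles are the 19 sites of 16q24, open triangles the 20 others, and the dashed line marks equal scores. All but 1 site lie above the line, and sites of both groups are mixed over the same range.

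In replicate 2, scores and widths inside the window overlapped widely with those of the rest of the chromosome, while replicate 1 scores lay higher inside it. The median replicate 2 score was 167 in 16q24 (quartiles 109 and 338) and 157 elsewhere (104 and 274), and the median width 1252 and 1144 bp. The highest replicate 2 scores were 1316.07 inside and 1320.97 outside. In replicate 1 the median score was 79.2 in the window (quartiles 58.3 and 117) and 66.7 elsewhere (54.9 and 74.6), so the window's median lay above the upper quartile of the rest. Its highest replicate 1 score was 243.5 against 178.79, and 7 of 23 peaks scored at least 100 against 4 of 31. The median replicate 1 width was 942 and 760 bp. No difference in score or width was tested. In replicate 2, 24 of 94 window peaks lay within 10 kb of another peak of that list, against 16 of 163 elsewhere. Closer spacing goes with the density known when the window was chosen (15.3 against 1.94 peaks per Mb), so it is not a further trait. Merging peaks closer than 10 kb left 79 separate places in the window.

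The higher the replicate 2 score, the larger was the share that replicate 1 also had. In 16q24, 0 of 19 peaks with a score from 70 to 100 were shared (up to 17.6%), 3 of 35 from 100 to 200, 2 of 14 from 200 to 300, 9 of 19 from 300 to 500 (47.4%, 24.4 to 71.1%) and 5 of 7 from 500 up (71.4%, 29.0 to 96.3%). Outside the window the last 2 classes stood at 5 of 20 (25%, 8.66 to 49.1%) and 4 of 12 (33.3%, 9.92 to 65.1%). The intervals of the window and the rest overlap in each class, and no difference was tested. A replicate 2 peak without a partner had no overlapping peak called in replicate 1. The lists alone do not show whether binding was lacking there.

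**Figure D5:**
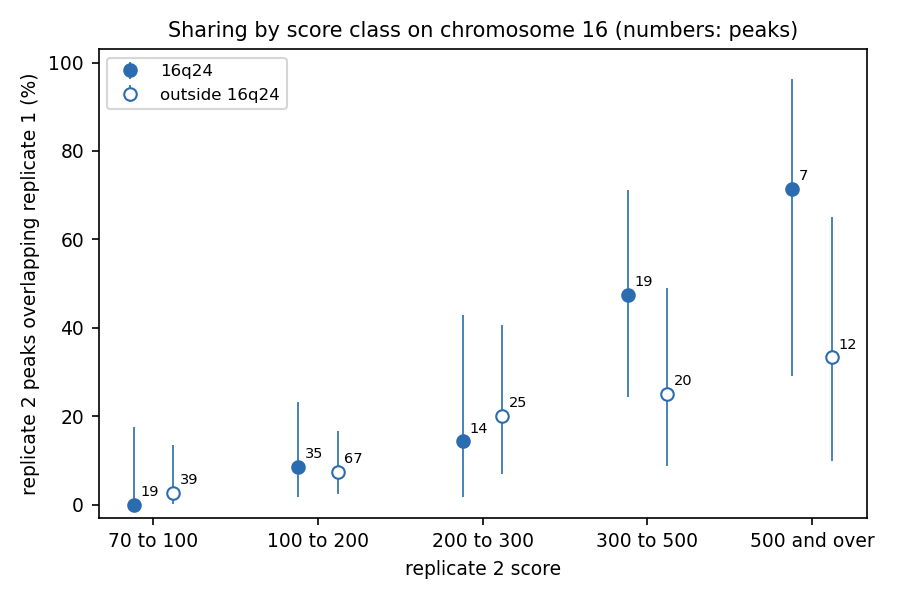
Share of replicate 2 peaks that overlap a replicate 1 peak, in percent (vertical axis), by class of replicate 2 score (horizontal axis), for 16q24 (filled) and the rest of chromosome 16 (open), with 95% Clopper-Pearson intervals and the number of peaks beside each point. The share climbs from 0% to 71.4% in the window and from 2.56% to 33.3% outside it.

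The strongest peaks seen by replicate 2 alone included a site at the edge of the satellite block. It lay at 46497442 to 46500895 in 16q11.2, was 3454 bp wide and had the highest score of the chromosome, 1320.97; the nearest replicate 1 peak was 2082 kb away. It was the first peak after a stretch of 11.22 Mb without any in either list, from 35281948 on, which takes in the satellite block. On the other side of that stretch, in the centromere band 16p11.1, replicate 2 had 5 peaks of 82.13 to 141.14 and replicate 1 had 0. Near it, from 32 to 35 Mb, replicate 2 had 17 peaks, all of them in 16p11.2, with a median width of 2511 bp, and 10 of them were at least 2 kb wide. In all, 28 of 257 replicate 2 peaks on the chromosome were that wide, 6 of them in 16q24. Of the 17, only the one at 32342524 to 32346870 was shared. The other leading unshared replicate 2 peaks were the one at 83983426 to 83985138 (883.11), 216 kb before the window, and the 90182654 peak given above. In replicate 1 the next unshared peaks were those from 66440160 (94.19, in 16q21) and from 24069424 (70.9, in 16p12.2).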

How the data were processed

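ChIP-seq peaks of 2 K562 samples were used, 1 list per library. The tools named are BWA and MACS and the builds hg19 and GRCh38, per the submitters' processing notes; which versions, settings and control were used is not given in the sources used here. Positions were taken as hg19, since 33 and 164 peaks end beyond their chromosome in GRCh38 and 0 in hg19, and are printed 1-based. The deposited score was read from its form as 10 times the negative log10 of the MACS p-value; it ranks peaks within a list, and ratios between lists are descriptive. Read depth is unknown, so only the number of peaks sets the precision.

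Bands came from circlize 0.4.16, and midpoints placed peaks in bins, bands and arms. Exact binomial tests ran genome-wide over bins and arms, and Fisher's exact test over 24 chromosomes, with Benjamini-Hochberg adjustment. Python 3.11.15, scipy 1.17.1 and pandas 2.3.3 were used. Members, lists and alternatives were chosen with earlier results of these data known. Sites named are all replicate 1 peaks of 16q24, the 5 highest replicate 2 peaks there, the 8 best-ranked shared sites elsewhere, the 3 highest unshared peaks per list and every bin called; other sites and bands were picked after their values were seen. Gene parts and base composition were planned but not computed, for want of an hg19 reference.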

Additional observations from a re-analysis of the deposited data

How the results depend on the processing

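The number of chromosome 16 bins called in both lists, 3 in the report, was 2 to 4 over 8 alternatives; it was 9 without replicate 1 and 3 without replicate 2, where a call needs 1 list. With replicate 2 limited to the length of the replicate 1 list, that list called 3 bins in place of 9. Both arms were called higher in both lists, but only 1 (the long arm) with scores of at least 70 and in the upper 50% of each list, and 2 without either replicate. The long arm holds the 16q24 window, which was chosen with its density known. The share of replicate 1 peaks that overlap replicate 2, 72.2%, lost its call in Fisher's exact test with scores of at least 70 (87.5%, adjusted p = 0.75), with replicate 2 limited in length (42.6%, adjusted p = 0.27) and in the upper 50% (84.8%, adjusted p = 0.094), as well as without chromosome 6 (72.2%) and without 16q24 (64.5%), both added after seeing the data. It kept its call in Fisher's exact test with midpoints within 500 bp (70.4%, adjusted p = 0.005) and with 50% overlap (adjusted p = 0.014). The replicate 2 share ran from 8.17 to 40.4% and never passed. Why the replicate 1 call was lost under these settings was not tested. The share of the chromosome's peaks in 16q24, 39.6% as the mean of both lists, was 36.6 to 42.6% with either replicate left out, 35.4% without the outermost 1 Mb, 38.2% with peaks closer than 10 kb merged, 43.2% in the upper 50%, 45.4% with scores of at least 70 and 44.1% with replicate 2 limited in length (45.6% of its peaks). With that limit 60.9% of replicate 1 and 53.8% of replicate 2 peaks in the window were shared, against 29.0% on the rest of the chromosome in each list. No result reversed. Overlap cannot be computed from a single list. No paired analysis was possible because both samples belong to the same group. The missing read depths limit what an unshared peak can tell: no overlapping peak was called in the other list, which does not mean that binding was lacking.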
